A study of Mus musculus with 15 samples.

Results

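The expression of 8 genes that govern the deposition of mineral in soft tissue was described in dystrophic skeletal muscle and heart: Spp1, Mgp, Enpp1, Alpl, Abcc6, Bmp2, Bmp4 and Runx2. The members were chosen by name, because DBA/2 mice are prone to dystrophic calcification, but with earlier results of these data known. They are 8 of the 56980 genes in the table of bulk RNA-seq levels. The study asked whether clearing senescent cells with dasatinib and quercetin (D + Q), a senolytic pair of drugs, changed tibialis anterior (TA) muscle and heart of DBA/2-mdx mice. These mice lack functional dystrophin, the cytoskeletal protein absent in Duchenne muscular dystrophy, on the DBA/2J background.

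All 15 mice were DBA/2J-mdx, so no group carries wild-type dystrophin and no level here is a level in healthy muscle. The TA groups held 4 D + Q–treated mice, labelled male, and 4 vehicle-treated mice, 2 male and 2 female. They were dosed 2 times a week for 2 months, from 3 to 5 months of age. The heart groups held 3 D + Q–treated mice, 1 labelled male and 2 female, and 4 vehicle-treated mice, 2 male and 2 female. They were dosed 2 times a week for 4 months, from 12 to 16 months of age. Each library came from whole tissue of 1 mouse, and TA and heart came from different animals. A difference between TA and heart therefore cannot be told apart from a difference between 5 and 16 months of age or between 2 and 4 months of dosing. With D + Q, such a difference cannot be told apart from one of sex either. The treated TA mice were all male, and by their transcripts, given below, the 3 treated hearts were all female. In whole tissue, a lower level from fewer cells of a type and from less RNA per cell cannot be told apart either.

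Mineral forms in soft tissue when phosphate and calcium outrun their inhibitors. Pyrophosphate is the chief small-molecule inhibitor: Enpp1 makes it from extracellular ATP, Abcc6 promotes ATP release, chiefly from the liver, and tissue-nonspecific alkaline phosphatase, encoded by Alpl, breaks pyrophosphate down. Matrix Gla protein (Mgp) and osteopontin (Spp1) are secreted proteins that hold back crystal growth, Bmp2 and Bmp4 are ligands that drive bone and cartilage formation, and Runx2 is the transcription factor that commits cells to the osteoblast lineage. In dystrophic muscle, osteopontin is known chiefly as a product of macrophages and regenerating fibres.

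Levels are given in TPM, transcript abundances scaled per transcript length and per library, so that levels of different genes can be set side by side. Fold changes are on the log2(TPM + 0.5) scale, which understates the change of genes with low levels. A differentially expressed gene (DEG) had an adjusted p under 0.05 and an absolute log2 fold change over 0.5 in limma, with p-values two-sided and adjusted by Benjamini-Hochberg over all genes tested. TPM keeps no read depth, so the depth behind each value is unknown and all errors are the spread between mice.

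Between 21830 and 25378 genes were above 0 in each library, and the 10 highest genes took 36.2% to 50.7% of the TPM. In heart both measures split by treatment. The genes above 0 numbered 22579 to 22818 with D + Q and 24089 to 25378 with vehicle. The 10 highest genes took 45.4% to 47.3% with D + Q and 50.1% to 50.7% with vehicle. The part of this split in the heart fold changes was not tested. The labelled tissues bore their markers: 10 fast skeletal muscle genes summed to between 61086 and 75159 TPM in TA and to at most 1784 TPM in heart, and 8 ventricular genes to between 22971 and 30675 TPM in heart and to at most 851 TPM in TA. The D + Q–treated heart replicate 3 was labelled male, but it held 47.2 TPM of Xist, the RNA of the inactive X chromosome, and 0.0438 TPM over the Y-linked genes. The other 14 libraries bore the sex of their label. By transcripts, all 3 D + Q–treated hearts were thus female, beside 2 male and 2 female vehicle-treated hearts. The heart fit used labelled sex, so its term for sex went against the transcripts of D + Q–treated heart replicate 3. For the members and lists, many of the results that rest on this heart are also given without it, and the others include it.

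In the TA, the 8 genes fell into a wide order of levels. In vehicle-treated TA, Mgp was the highest at 157 ± 57.6 TPM (mean ± SD, n = 4), then Spp1 at 48.4 ± 26.4, Alpl at 36.8 ± 15.5, Bmp4 at 8.19 ± 3.14, Enpp1 at 3.99 ± 0.577, Runx2 at 3.23 ± 0.523 and Bmp2 at 1.79 ± 0.250 TPM. Neighbours in this order overlapped between mice for Spp1 and Alpl, for Bmp4 and Enpp1, and for Enpp1 and Runx2, while Mgp stood above Spp1, and Runx2 above Bmp2, in every mouse. In the vehicle-treated heart, Mgp was again the highest at 292 ± 86.8 TPM (n = 4), with Alpl next at 21.5 ± 6.60 TPM. Spp1 came only after Bmp4 there, at 4.75 ± 2.20 against 4.77 ± 1.14 TPM, and these neighbours overlapped. Abcc6 stood last in each group.

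**Figure D1:**
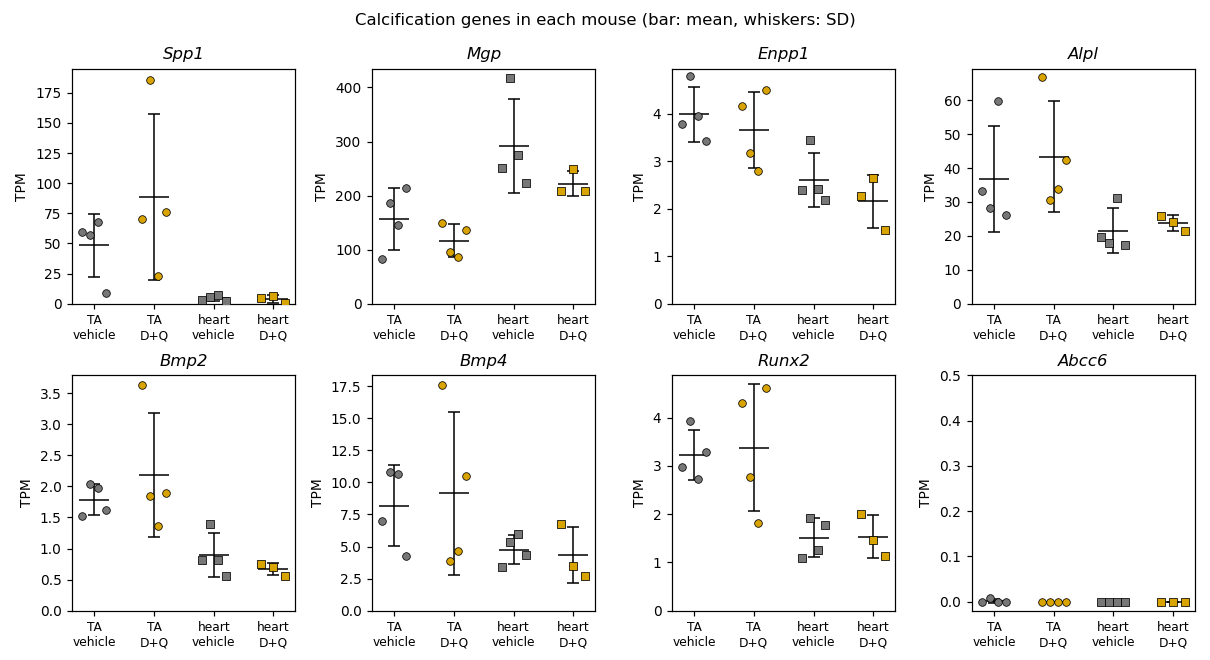
Each panel plots 1 gene, with the level of every mouse in TPM on the vertical axis and the 4 groups on the horizontal axis (circles TA, squares heart, grey vehicle, yellow D + Q; bar, mean; whiskers, SD). The treated and untreated mice of a tissue overlap in every panel, Spp1 lies far higher in TA than in heart, Mgp lies lower, and Abcc6 lies at the bottom of its axis in all 15 mice.

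The secreted inhibitors of mineral growth, Mgp and Spp1, were the highest members in TA. Spp1 (ENSMUSG00000029304, chr5:104582165-104589235, plus strand, GRCm39) encodes osteopontin. In vehicle-treated TA it stood at 59.3, 57.4, 67.6 and 9.36 TPM in replicates 1 to 4. In D + Q–treated TA it stood at 69.9, 186, 23.4 and 76.0 TPM. Vehicle replicate 4 was the lowest of the 8 TA mice and D + Q replicate 2 the highest, so the treated mice both exceeded and lay within the untreated range. The fold change with D + Q was 0.60 on the log2 scale (SE 0.66, 95% interval -0.86 to 2.06, limma adjusted p = 0.999), and it was -0.14 without D + Q replicate 2 and 0.11 without vehicle replicate 4. With males alone, the 4 treated mice against vehicle replicates 1 and 3, it was 0.13.

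Spp1 was much lower in the heart. The vehicle-treated hearts held 3.39, 5.40, 7.55 and 2.65 TPM, and the D + Q–treated hearts 4.71, 6.56 and 0.678 TPM. The treated hearts 1 and 2 lay inside the untreated range and replicate 3 lay below it. The log2 fold change with D + Q was -0.74 (SE 0.30, 95% interval -1.45 to -0.03), with an unadjusted p of 0.0439 and an adjusted p of 0.268 in limma. It was -0.18 without replicate 3, the heart whose sex label its own transcripts went against, and -0.48 with no term for sex.

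Between the tissues, every TA mouse had more Spp1 than every heart of the same treatment. The log2 difference, TA minus heart, was 2.99 in vehicle-treated mice (SE 0.71, limma adjusted p = 0.00282) and 4.32 in D + Q–treated mice (SE 0.76, adjusted p = 0.000294). Spp1 rose in TA over heart under all 8 other settings and in all 15 fits without 1 mouse. Its difference was 3.65 without vehicle-treated TA replicate 4 and, in D + Q–treated mice, 3.53 without heart replicate 3. Macrophage markers moved the same way: 9 of 14 rose in vehicle-treated TA over vehicle-treated heart and none fell, or 8 with median-of-ratios scaling. Over all genes, 22.6% rose and 14.1% fell in that comparison, or 2909 and 3317 of 17869 with that scaling. The summed level of the macrophage markers was 483 to 987 TPM in vehicle-treated TA and 592 to 1064 in D + Q–treated TA. It was 263 to 411 TPM in vehicle-treated heart and 224 to 360 in D + Q–treated heart. None of the 14 was at 0 in any mouse. All 6 satellite cell and regenerating fibre markers were also called higher in TA. They reached the 0.5 TPM needed for testing in TA alone, so this direction was set in advance. Their summed level went from at most 0.452 TPM in heart to between 94.8 and 158 TPM in TA, with Pax7, which defines satellite cells, listed at 0 in all 4 vehicle-treated hearts. The part of either in the difference in Spp1 was not tested.

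Mgp (ENSMUSG00000030218, chr6:136849433-136852821, minus strand) encodes the vitamin K-dependent matrix Gla protein, a strong inhibitor of vascular and cartilage calcification. It was at 81.9, 186, 145 and 215 TPM in vehicle-treated TA and at 149.9, 94.8, 87.2 and 136 TPM after D + Q. The treated range lay inside the untreated one. Its log2 fold change was -0.45 (SE 0.29, 95% interval -1.08 to 0.19, limma adjusted p = 0.999), and it turned to 0.064 when males alone were compared.

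In the heart, Mgp was at 251, 418, 275 and 223 TPM with vehicle and at 208, 249 and 209 TPM with D + Q. Treated replicates 1 and 3 lay below every untreated heart and replicate 2 lay inside their range, while vehicle replicate 2 stood well above the rest. The log2 fold change was -0.41 (SE 0.16, 95% interval -0.79 to -0.03), with an unadjusted p of 0.0364 and an adjusted p of 0.248 in limma. It was -0.22 without vehicle replicate 2 and -0.57 without D + Q replicate 3. Fibroblast markers had a median log2 fold change of -0.40 over 10 tested in the heart, against -0.0025 over all genes, or -0.39 against -0.014 without D + Q replicate 3, with none a DEG, and a summed level of 722 to 1006 TPM with vehicle and of 585 to 707 TPM with D + Q. Atrial markers moved with the groups as well: 4 of 8 fell, beside 0.316% of all genes called in either direction. Without D + Q replicate 3 the number was 3, beside 4 of 15963 genes lower. Their sum was 897 to 4339 TPM with vehicle, highest in replicate 2, and 407 to 456 TPM with D + Q. The part of either list in the level of Mgp was not tested.

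Mgp was the only member lower in TA than in heart. The log2 difference was -0.94 in vehicle-treated mice (SE 0.27, limma adjusted p = 0.0103) and -0.96 in D + Q–treated mice (SE 0.29, adjusted p = 0.0152). No TA mouse reached the lowest heart of its treatment. With labelled sex in the fit the difference in D + Q–treated mice was -0.59, with an adjusted p of 0.105, and without D + Q–treated heart replicate 2 it was -0.87, with an adjusted p of 0.0574. The call with D + Q was kept in the other 14 fits without 1 mouse, and the differences over all 15 ran from -1.09 to -0.83.

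Of the enzymes of pyrophosphate, Alpl stood above Enpp1 in every mouse. Enpp1 (ENSMUSG00000037370, chr10:24513812-24588057, minus strand), which generates pyrophosphate, was at 3.79, 4.79, 3.96 and 3.43 TPM in vehicle-treated TA and at 4.17, 3.18, 2.79 and 4.50 TPM after D + Q. In the heart it was at 2.40, 3.44, 2.42 and 2.18 TPM with vehicle and at 2.28, 2.65 and 1.54 TPM with D + Q. The groups overlapped in both tissues, and D + Q–treated heart replicate 3 lay below every other heart. The estimate for D + Q was -0.20 on the log2 scale in TA (SE 0.18, 95% interval -0.60 to 0.21) and -0.30 in heart (SE 0.15, 95% interval -0.65 to 0.05), with limma adjusted p of 0.999 and 0.349. Without heart replicate 3 the heart value was -0.20.

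Enpp1 was higher in TA than in heart, by 0.54 on the log2 scale with vehicle (limma adjusted p = 0.0264) and by 0.65 with D + Q (adjusted p = 0.0151). In vehicle-treated mice the ranges overlapped, since heart replicate 2 exceeded TA replicate 4. The value with vehicle fell under the minimum fold with median-of-ratios scaling, at 0.37, and with a pseudocount of 1, at 0.47, and the call was lost without vehicle-treated TA replicate 2 or vehicle-treated heart replicate 1, 3 or 4, at differences down to 0.46. With D + Q it was lost without heart replicate 3, where the difference was 0.47.

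Alpl (ENSMUSG00000028766, chr4:137469039-137524102, minus strand), which removes pyrophosphate, was at 33.2, 28.2, 59.7 and 26.2 TPM in vehicle-treated TA and at 66.7, 30.6, 33.7 and 42.4 TPM after D + Q. Vehicle replicate 3 and D + Q replicate 1 were the high mice, and the rest of both groups lay within 26.2 to 42.4 TPM. The log2 fold change was 0.02 (SE 0.16, 95% interval -0.33 to 0.38, limma adjusted p = 0.999) with the surrogate variable in the fit and 0.25 with no covariate. The vehicle-treated hearts held 19.6, 17.8, 31.3 and 17.4 TPM and the D + Q–treated hearts 26.02, 24.0 and 21.4 TPM. All 3 treated hearts lay between vehicle replicate 3 and the other vehicle-treated hearts, and the log2 fold change was 0.13 (SE 0.18, 95% interval -0.29 to 0.55, adjusted p = 0.748). It was 0.081 without D + Q–treated heart replicate 3, 0.34 without vehicle replicate 3 and -0.057 without vehicle replicate 2.

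Alpl differed between the tissues by 0.72 in vehicle-treated mice (SE 0.27, limma adjusted p = 0.0425) and by 0.79 in D + Q–treated mice (SE 0.29, adjusted p = 0.0417). Both values lay close to the threshold, and the call was lost under 4 of 8 other settings in each treatment, with adjusted p from 0.0502 to 0.137. With vehicle it was also lost in 9 of 15 fits that left out 1 mouse, namely vehicle-treated TA replicate 1 or 3, D + Q–treated TA replicate 4, vehicle-treated heart replicate 1, 2 or 4, or any D + Q–treated heart. The lowest of these differences was 0.47, without TA replicate 3. With D + Q it was lost in 7 of 15 such fits, without D + Q–treated TA replicate 1 or 4, vehicle-treated TA replicate 1, vehicle-treated heart replicate 1 or any D + Q–treated heart, down to 0.56 without TA replicate 1.

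The ratio of Alpl to Enpp1 in TPM sets the enzyme that removes pyrophosphate against the enzyme that makes it. It was 8.76, 5.88, 15.1 and 7.65 in vehicle-treated TA and 16.0, 9.60, 12.1 and 9.43 in D + Q–treated TA. In the heart it was 8.16, 5.16, 12.9 and 7.99 with vehicle and 11.4, 9.07 and 13.8 with D + Q. In both tissues the treated mice lay above all untreated mice except vehicle replicate 3, which exceeded 3 of 4 treated TA mice and 2 of 3 treated hearts. In TA the lowest ratios, 5.88 and 7.65, were those of the female vehicle mice, while all treated mice were male. The male vehicle mice stood at 8.76 and 15.1. The ratio was not tested.

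Abcc6 (ENSMUSG00000030834, chr7:45616979-45679859, minus strand), a membrane transporter expressed mainly in liver and kidney, was listed at 0 in 14 of 15 mice and at 0.00771 TPM in vehicle-treated TA replicate 2. It was the member that did not reach 0.5 TPM in 3 mice, so it entered no test and the counts below are of 7 members tested.

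The osteogenic ligands and the osteoblast transcription factor came at levels between 0.559 and 17.6 TPM over all mice. Bmp4 (ENSMUSG00000021835, chr14:46620250-46636745, minus strand) was at 7.01, 10.8, 10.6 and 4.29 TPM in vehicle-treated TA and at 17.6, 3.84, 4.64 and 10.5 TPM after D + Q. Treated replicate 1 was the highest and treated replicate 2 the lowest of the 8 mice, so that D + Q–treated TA spanned a wider range than vehicle-treated TA. The estimate for D + Q was -0.34 on the log2 scale (SE 0.26, 95% interval -0.91 to 0.24, limma adjusted p = 0.999) and -0.0078 with no covariate. The hearts held 3.39, 5.34, 5.99 and 4.35 TPM with vehicle and 6.79, 3.48 and 2.74 TPM with D + Q, and the treated mice again lay on both sides of the untreated range. The fold change there was -0.29 (SE 0.21, adjusted p = 0.532), with -0.53, -0.091 and -0.19 without D + Q–treated heart replicate 1, 2 and 3 in turn.

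Bmp4 was the tested member that did not pass between the tissues. The log2 difference was 0.67 with vehicle (SE 0.41, 95% interval -0.22 to 1.55, limma adjusted p = 0.211) and 0.85 with D + Q (SE 0.45, 95% interval -0.11 to 1.80, adjusted p = 0.144). Without D + Q–treated TA replicate 2 the value with D + Q was 1.15, with an adjusted p of 0.0487. In the other 14 fits without 1 mouse Bmp4 stayed uncalled with D + Q, and the differences over all 15 ran from 0.46 to 1.19.

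Bmp2 (ENSMUSG00000027358, chr2:133394079-133404816, plus strand) was at 1.53, 2.03, 1.97 and 1.62 TPM in vehicle-treated TA and at 3.63, 1.84, 1.35 and 1.89 TPM after D + Q. Treated replicate 1 stood above the other 7 mice, which lay between 1.35 and 2.03 TPM. In the heart, Bmp2 was at 0.810, 1.39, 0.814 and 0.561 TPM with vehicle and at 0.747, 0.705 and 0.559 TPM with D + Q. With D + Q, the log2 fold change was 0.02 in TA (SE 0.20, limma adjusted p = 0.999) and -0.28 in heart (SE 0.19, adjusted p = 0.483). The heart value was -0.36 without D + Q replicate 3 and -0.13 without vehicle replicate 2. Every TA mouse exceeded every heart of its treatment, with differences of 0.74 with vehicle (SE 0.23, adjusted p = 0.0151) and 1.13 with D + Q (SE 0.24, adjusted p = 0.00156). The call with vehicle was lost without vehicle-treated heart replicate 4, at 0.62 with an adjusted p of 0.0548. The call with D + Q was kept in all 15 fits without 1 mouse, at differences from 0.90 to 1.29.

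Runx2 (ENSMUSG00000039153, chr17:44806874-45125684, minus strand) was at 2.97, 3.93, 2.73 and 3.28 TPM in vehicle-treated TA and at 4.30, 2.78, 1.82 and 4.61 TPM after D + Q. Treated mice 1 and 4 lay above the untreated range and treated mouse 3 below it. The vehicle-treated hearts held 1.08, 1.92, 1.26 and 1.77 TPM and the treated hearts 2.00, 1.46 and 1.12 TPM, which overlapped. The log2 fold change was -0.12 in TA (SE 0.24, 95% interval -0.64 to 0.41) and -0.03 in heart (SE 0.20, 95% interval -0.51 to 0.45), with limma adjusted p of 0.999 and 0.957. The heart value was 0.097 without D + Q replicate 3. Runx2 rose in TA over heart by 0.90 with vehicle (SE 0.24, adjusted p = 0.00641) and by 0.89 with D + Q (SE 0.26, adjusted p = 0.0118). The ranges were apart with vehicle and overlapped with D + Q, and that second call was lost without heart replicate 3, at 0.74 with an adjusted p of 0.0635. The Runx2 locus overlaps Supt3 on the other strand, and strand in the quantification was not given in the sources used here.

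Runx2 and Spp1 also share a sequence feature. RUNX proteins bind the letters AACCACA, and a search on both strands of the 250 bases before the RefSeq starts found them in 4.40% of 32851 mouse windows. RefSeq windows (GRCm38.p6) were matched for 5 members in 7 windows, those of Spp1, Runx2, Alpl, Enpp1 and Bmp4, and the windows of 2 members held the letters. Both sites are shown as the only matches among the windows searched. Spp1 and Runx2 rose in TA over heart. Alpl and Enpp1, whose windows lack the letters, also rose, though those calls were lost under some settings. Bmp2, which rose, and Mgp, which fell, had no window to search. Any part of the letters in these levels was not tested. The sites are given with the motif in capitals and 10 bases on each side, on the strand of the gene.
Spp1, chr5:104582838-104582864 (GRCm39, plus strand): ttttttttttAACCACAaaaccagagg
Runx2, chr17:45125579-45125605 (GRCm39, minus strand): tgaggtcacaAACCACAtgattctgtc
The first base of the motif lay 129 bases before the start in Spp1 and 81 bases before it in Runx2. Each window matched the chromosome at 1 place in GRCm39, and GENCODE, whose transcripts of these genes start further upstream, annotates both sites as exon and UTR. A match is a description of the letters and no evidence of binding.

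Counted over the members, the treatment comparisons held no DEG. In TA, 0 of 7 members tested were DEGs, beside 0% of all 16298 genes, and no member passed an unadjusted p under 0.05 with the same minimum fold, beside 0.491% of all genes higher and 1.72% lower. The median log2 fold change of the 7 was -0.12, against -0.07 over all genes. The paper's own test, run on counts, did report genes changed in both directions in TA. The lack of calls in this fit therefore does not show that D + Q changed nothing there. In heart, 0 of 7 were DEGs, beside 0.316% of 16132 genes. At an unadjusted p under 0.05 and the minimum fold, 1 of 7, Spp1, was lower, beside 3.79% of all genes, and none was higher, beside 1.3%. The fold change was negative for 6 of the 7, with a median of -0.29 against -0.0025 over all genes. Without D + Q–treated heart replicate 3 the median was -0.19 against -0.014, and the 1 member lower at an unadjusted p under 0.05 was Mgp in place of Spp1. For no member did the treated and untreated mice stand apart, beside 1.52% of all genes in TA and 15.2% in heart.

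**Figure D2:**
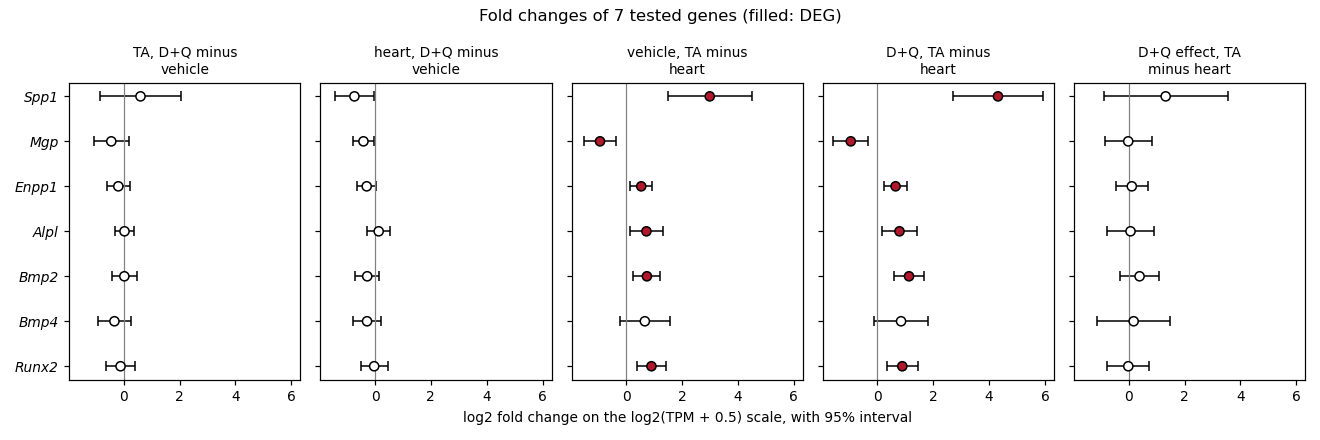
Each panel plots 1 comparison, with the log2 fold change on the log2(TPM + 0.5) scale on the horizontal axis and 7 genes on the vertical axis (point, limma estimate; line, 95% interval; filled, DEG). No point is filled for D + Q against vehicle in TA or in heart, while Spp1, Enpp1, Alpl, Bmp2 and Runx2 are filled to the right and Mgp to the left for TA against heart in both treatments.

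Between vehicle-treated TA and heart, 5 of 7 members rose in TA and 1 fell, beside 22.6% of 17868 genes higher and 14.1% lower, or 36.7% in all. Their median log2 difference was 0.72, against 0.16 over all genes. Between the D + Q–treated groups 5 again rose and 1 fell, beside 21.4% and 15.9%, or 37.3% in all, with medians of 0.85 and 0.09. The ranges of TA and heart stood apart for 4 of 7 members with vehicle and for 5 of 7 with D + Q, beside 40.9% and 46.7% of all genes. With median-of-ratios scaling, which moves the median of all genes from 0.16 to -0.0036, the members that rose with vehicle were 3, Spp1, Bmp2 and Runx2, and the calls over all genes turned from 4038 higher and 2518 lower to 2909 and 3317. The counts also turned on single hearts. The members that rose with vehicle were 3 without vehicle-treated heart replicate 1 and 2 without replicate 4, beside 3627 of 17786 and 3631 of 17790 genes. Those that rose with D + Q were 2, Spp1 and Bmp2, without D + Q–treated heart replicate 3, the library whose sex label its transcripts went against, and none fell without D + Q–treated heart replicate 2. Over all genes, 3252 of 17780 rose without that replicate 3, and 2533 of 17747 fell without that replicate 2. These counts share the fit with all 4 groups and are side by side, not independent.

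The effect of D + Q was compared between the tissues by the interaction of tissue and treatment. None of 7 members passed, beside 0.0616% of all genes, and none passed an unadjusted p under 0.05 with the minimum fold, beside 1.73% of all genes positive and 2.59% negative. The values ran from -0.02 for Mgp to 1.33 for Spp1 (SE 1.04, 95% interval -0.89 to 3.54, limma adjusted p = 0.945), or 0.54 for Spp1 without D + Q–treated heart replicate 3. The interval for Spp1 was the widest of the 7, and that for Enpp1, from -0.46 to 0.69, the narrowest.

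The members also varied among the mice of 1 group. Spp1 had the widest spread, with a highest mouse 19.9 times the lowest over the 8 TA mice and 11.1 times over the 7 hearts. Enpp1 was the steadiest in TA, at 1.71 times. Bmp4 spanned 4.57 times in TA and 2.48 times in heart. TA D + Q replicate 1 stood above its group mean in Alpl, Bmp2 and Bmp4 together, by 0.68, 0.69 and 1.15 on the log2 scale, and replicate 3 below its group mean in all 7 genes. The surrogate variable of the TA fit, estimated over all genes, was highest in D + Q replicate 1, at 0.70, and lowest in D + Q replicate 3, at -0.42.

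**Figure D3:**
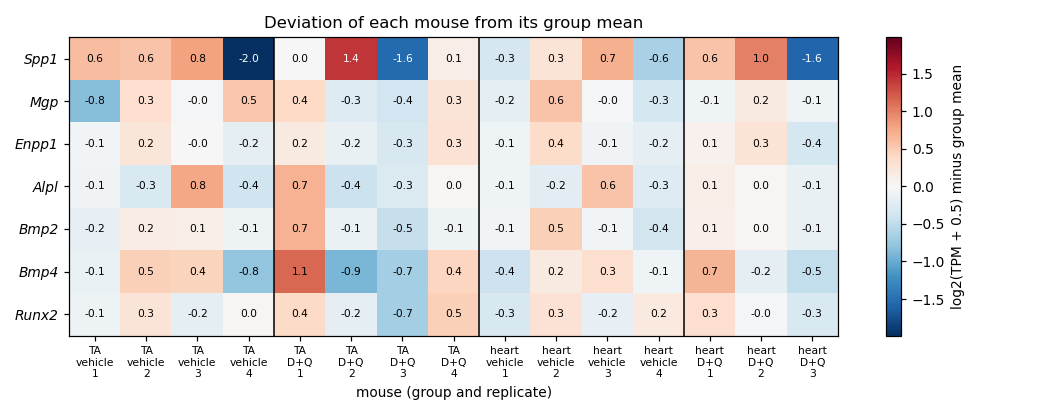
The colour and number of each cell give the log2(TPM + 0.5) of a gene (rows) in a mouse (columns) minus the mean of its group, with vertical lines between the 4 groups. The strongest colours lie in the Spp1 row, at vehicle-treated TA replicate 4 (-1.99), D + Q–treated TA replicates 2 and 3, and D + Q–treated heart replicate 3, and the column of D + Q–treated TA replicate 3 is blue throughout.

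The genes whose pattern across mice was most like that of a member were listed by Pearson r of the same deviations over 15 mice, among 17867 genes, as a description; these mice share their groups, and r carries the libraries' composition. For Spp1 the first was Itgax, the integrin alpha chain of CD11c on dendritic cells and macrophages, at r = 0.964, then Eif4e3, Rhoq, Atp6v1a and Polr2g at 0.928 to 0.923. Itgax was at 15.2, 13.8, 19.8 and 4.03 TPM in vehicle-treated TA and at 18.03, 23.1, 7.63 and 16.5 TPM in D + Q–treated TA, so that the lowest and highest mice were those of Spp1. In the hearts it ran from 0.202 TPM, in D + Q replicate 3, to 1.59 TPM. For Mgp the 5 were Gm10362, Gm48939, Prelp, Gm13991 and Sec31a, at r from 0.920 to 0.894, where Prelp encodes a matrix proteoglycan. For Runx2 they were Fubp3, Dhx58, Nkapd1, Ssb and Zfp275, at r from 0.945 to 0.900.

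The wider pathway was read from 7 lists around the members. No gene of the 7 lists was a DEG with D + Q in TA, in heart or in the interaction. At an unadjusted p under 0.05 with the minimum fold, 1 of 5 BMP ligands was higher and 1 of 9 BMP response genes was lower in TA, beside 0.491% of all genes higher and 1.72% lower. In heart the counts lower were 1 of 15 mineral regulators, 1 of 6 BMP ligands, 2 of 9 BMP antagonists, 1 of 8 osteoblast and chondrocyte genes and 3 of 12 osteopontin and osteoclast partners, with none higher, beside 3.79% of all genes lower and 1.3% higher. Without D + Q–treated heart replicate 3 they were 2, 0, 4, 1 and 1, with 1 mineral regulator higher, beside 4.05% of all genes lower and 1.65% higher. The median log2 fold changes in heart ran from -0.36 for the BMP antagonists to -0.068 for the BMP receptors and SMADs, and without that heart from -0.48 to -0.14 for the same lists.

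**Figure D4:**
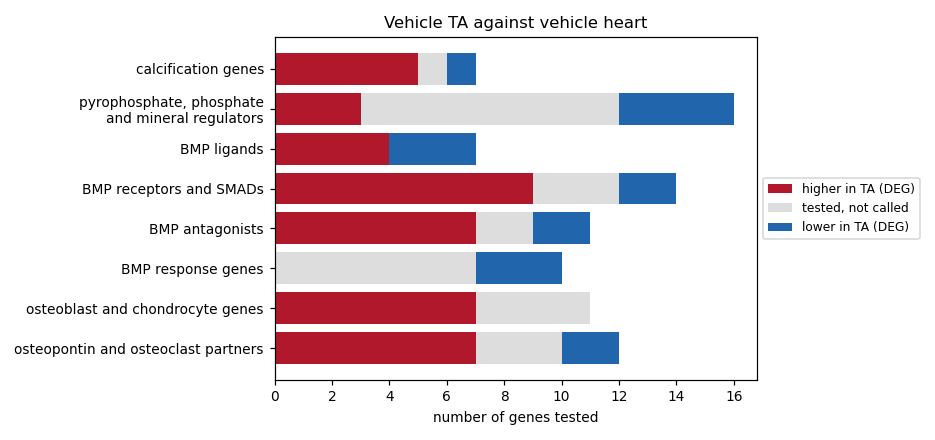
Bars give, for the calcification genes and each of 7 pathway lists (rows), the number of genes tested (horizontal axis) that were higher in vehicle-treated TA than in vehicle-treated heart (red), lower (blue) or not called (grey) in limma. The osteoblast and chondrocyte genes hold 7 of 11 red and none blue, and the BMP response genes none red and 3 of 10 blue.

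Between vehicle-treated TA and heart, each of the 7 lists held genes that differed, beside 22.6% of all genes higher and 14.1% lower. Some list genes, Nog among them, reached the 0.5 TPM needed for testing in only TA or only heart. Their direction was set by that filter. The shares of the mineral regulators, 7 of 16, and of the BMP response genes, 3 of 10, lay near the 36.7% of all genes. Counts with median-of-ratios scaling are given where it moved them, and no list's median changed sign with it. Of all 17869 genes, 2909 were higher and 3317 lower with that scaling. Of the mineral regulators, 3 of 16 rose in TA and 4 fell, or 5 with that scaling. Phospho1, a phosphatase that releases phosphate inside matrix vesicles, was at 177 ± 55.5 TPM in TA and 61.4 ± 0.791 in heart (SD, n = 4 each), a log2 difference of 1.45. Ank, the mouse name in this annotation of the protein that exports ATP and pyrophosphate, was at 64.3 ± 12.4 and 46.6 ± 2.26 TPM, a difference of 0.44 that stayed under the minimum fold and reached 0.56 without vehicle-treated TA replicate 4. Ahsg, the plasma protein fetuin-A that binds nascent mineral, was at 0.181 ± 0.229 TPM in TA and at 4.03 to 6.71 TPM in the 4 hearts, and Nt5e, the ectonucleotidase CD73, at 1.17 ± 0.293 and 6.46 ± 1.39 TPM, with differences of -3.15 and -2.05.

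All 7 BMP ligands tested, of 11 listed, differed, 4 higher and 3 lower in TA, or 3 and 3 with median-of-ratios scaling. Bmp8a was at most 0.0532 TPM in heart, and Bmp7 and Bmp10 at most 0.311 and 0.00694 TPM in TA. These reached the 0.5 TPM needed for testing in the other tissue alone, so their direction was set by that filter. Bmp5 was at 15.2 ± 4.42 TPM in TA and 0.831 ± 0.291 in heart, a log2 difference of 3.54, and Bmp1, a procollagen protease that is named with the family, at 15.4 ± 2.15 and 8.74 ± 0.889 TPM, a difference of 0.78. Bmp10, an atrial ligand, was listed at 0 in all 4 vehicle-treated TA mice and at 0.106 to 20.4 TPM in the hearts, where the atrial marker list, which also holds Bmp10, varied as given above. Receptors and SMADs rose in 9 of 14 and fell in 2, or 6 and 3 with that scaling. Hjv, the muscle-enriched BMP co-receptor hemojuvelin, was at 151 ± 44.8 TPM in TA and 47.3 ± 5.52 in heart, and Eng, an endothelial co-receptor, at 23.7 ± 6.40 and 53.7 ± 7.62 TPM, with differences of 1.62 and -1.19.

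BMP antagonists rose in 7 of 11 and fell in 2, or 6 and 2 with median-of-ratios scaling. Nog, which encodes the BMP-binding protein noggin, was at 7.44 ± 2.63 TPM in vehicle-treated TA and at 0.111 ± 0.0717 TPM in heart, a log2 difference of 3.65. Fstl1 was at 63.5 ± 9.29 and 31.9 ± 6.11 TPM, a difference of 0.99, while Twsg1 gave -0.18 and did not pass. Of the BMP response genes, none of 10 was higher and 3 were lower, a share near the 36.7% of all genes called, or 6 lower with that scaling. Id3 was at 11.4 ± 5.13 TPM in TA and 24.3 ± 3.97 in heart, a difference of -1.19, and Id1, at 17.7 ± 11.8 and 29.1 ± 4.17 TPM, gave -0.90 with a limma adjusted p of 0.0941. That value passed with median-of-ratios scaling, at -1.08, without D + Q–treated TA replicate 1, at -0.90, and without vehicle-treated TA replicate 3, at -1.28. Endothelial markers, a list that also holds Eng, fell in 5 of 10, or 6 with median-of-ratios scaling, and rose in none. Over all genes, 14.1% fell and 22.6% rose. The endothelial sums, Eng included, were 209 to 319 TPM in vehicle-treated TA and 342 to 419 TPM in heart. The part of these markers in the level of the Id genes was not tested, and a list that holds Eng cannot be set against Eng.

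Osteoblast and chondrocyte genes rose in 7 of 11 tested and fell in none. Chad, a cartilage matrix protein, was at 40.1 ± 52.1 TPM in TA and 0.455 ± 0.366 in heart, with a log2 difference of 4.58, or 3.77 without vehicle-treated TA replicate 4 and 5.27 without replicate 1. Sox6, which also acts in fast muscle fibres, was at 66.3 ± 15.7 and 12.3 ± 0.826 TPM, a difference of 2.36, and Atf4, a general stress factor, at 75.4 ± 18.4 and 30.0 ± 3.10 TPM, a difference of 1.29. Of genes that define bone cells, Sp7 reached 0.167 TPM and Ibsp 0.382 TPM at most over the 15 mice. Bglap, osteocalcin, reached 9.23 TPM in D + Q–treated TA replicate 1 and at most 0.303 TPM in the vehicle-treated TA mice. These 3 were chosen after their values were seen.

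Of the partners of osteopontin and osteoclast genes, 7 of 12 rose in vehicle-treated TA and 2 fell, or 5 and 2 with median-of-ratios scaling. Ctsk, the collagen-degrading protease cathepsin K, was at 59.1 ± 19.5 TPM in TA and 5.16 ± 1.18 in heart, a log2 difference of 3.36. Itgb1, the beta chain of several osteopontin-binding integrins, was at 227 ± 12.5 and 159 ± 7.34 TPM, a difference of 0.51 just past the minimum fold. It was 0.32 with median-of-ratios scaling, and under the minimum also without vehicle-treated TA replicate 2 or 3 or vehicle-treated heart replicate 4. In D + Q–treated mice the counts higher and lower in TA were 4 and 2 for the mineral regulators, 4 and 2 for BMP ligands, 8 and 2 for receptors and SMADs, 8 and 1 for antagonists, 1 and 2 for response genes, 6 and 0 for osteoblast and chondrocyte genes and 7 and 1 for osteopontin and osteoclast partners, beside 21.4% and 15.9% of all genes. Median-of-ratios scaling moved these to 3 and 3 for the mineral regulators, 8 and 2 for antagonists, 0 and 3 for response genes and 6 and 1 for osteoblast and chondrocyte genes. Of all 17869 genes, 3260 were higher and 3477 lower with that scaling. Without D + Q–treated heart replicate 3 they were 3 and 2 for the mineral regulators, 7 and 1 for receptors and SMADs and 0 and 2 for response genes, and the other 4 lists gave the counts above. Of all 17780 genes, 3252 were higher and 2743 lower without that heart.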

How the data were processed

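Bulk RNA-seq levels of 15 libraries, each from 1 mouse, were used. Per the submitters' processing notes, reads were trimmed with Trim Galore 0.6.10 and quantified with Salmon 1.10.3 on GRCm39, and the authors summarised them per gene and deposited TPM, without the counts that their own DESeq2 test used. Each library sums to 1000000 TPM, and read depth is unknown. Identifiers were named by GENCODE M39 (56236 of 56980 matched).

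Here limma 3.58.1 in R 4.3.3 was fitted to log2(TPM + 0.5) keeping a gene where 3 or more mice of the fit held 0.5 TPM or more, with 1 surrogate variable in TA and labelled sex in heart. The label of D + Q–treated heart replicate 3, which its transcripts went against, was kept in that fit. TA and heart were compared in 1 fit of the 4 group means with no covariate. DEGs had a Benjamini-Hochberg adjusted p under 0.05 and an absolute log2 fold change over 0.5. The fits were tested on simulated data. Same-numbered treated and untreated mice were different animals, whose deviations correlated at -0.30 to 0.04 in TA and -0.04 to 0.03 in heart, so numbers were not taken as pairs.

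Named genes were the members, the 2 highest genes of each list, the 3 list genes of each direction with the largest difference between vehicle-treated tissues, and the 5 most like Spp1, Mgp and Runx2. Members and lists were chosen with earlier results of these data known. Alternatives were other pseudocounts, filters, scaling, variance trend and covariates, and leaving out each mouse.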

Additional observations from a re-analysis of the deposited data

Results flagged for a closer look

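Among 78 groups of 4 mice examined over the 8 members and the list genes named, 7 held a mouse far from the other 3, where chance alone sets apart about 1 in 20 groups. Alpl reached 31.3 TPM in vehicle-treated heart replicate 3, against 17.4 to 19.6 TPM in the other vehicle-treated hearts. Abcc6 was at 0.00771 TPM in vehicle-treated TA replicate 2 and listed at 0 in the rest. Bmp10 was at 0.00694 TPM in 1 D + Q–treated TA mouse and listed at 0 in the others. Chad reached 117 TPM in 1 vehicle-treated TA mouse and 90.1 TPM in 1 D + Q–treated TA mouse, where the medians were 19.2 and 9.38 TPM. These were vehicle replicate 4 and D + Q replicate 3, which held the lowest Spp1 of their groups, at 9.36 and 23.4 TPM. Phospho1 reached 62.6 TPM and Atf4 34.6 TPM in 1 vehicle-treated heart each, against medians of 61.0 and 28.7 TPM. No member differed between the tissues in its response to D + Q by the interaction test.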

How the results depend on the processing

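The members called with D + Q in TA, in heart or in the interaction numbered 0 under all other settings tried and without any single mouse. In TA the other settings called no gene at all, and fits without 1 mouse called at most 1 gene in each direction. The count in TA therefore cannot show anything particular to the members. Over all alternatives, 627 fold changes of members kept their direction and their side of the threshold, 50 changed sign, all of them in comparisons where the member was not called, 35 lost a call and 1 gained one. Read depth cannot be had from TPM, and with 3 or 4 mice a group the intervals given with each value set what could be seen.

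With males alone, or with labelled sex in place of the surrogate variable, the TA fold changes of Mgp, Alpl and Runx2 turned to 0.064, -0.10 and 0.14. The heart fold change of Runx2 turned to 0.078 with a replicate block and to 0.011 with no covariate. In the interaction, Mgp and Runx2 turned to 0.061 and 0.052 with median-of-ratios scaling and to 0.35 and 0.17 with labelled sex. The members higher in TA with vehicle numbered 3 with median-of-ratios scaling, and those lower in TA with D + Q numbered 0 with labelled sex. The causes were not tested. The replicate block changed no call of a member.

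Without each mouse in turn, members higher in TA numbered 2 to 5 with vehicle and 2 to 6 with D + Q, and members lower 1 with vehicle and 0 to 1 with D + Q. The TA fold changes then ran from -0.14 to 0.85 for Spp1, -0.72 to 0.039 for Mgp, -0.095 to 0.24 for Alpl, -0.062 to 0.21 for Bmp2 and -0.32 to 0.24 for Runx2. Those in heart ran from -0.057 to 0.34 for Alpl, -0.18 to 0.097 for Runx2, -0.39 to -0.13 for Bmp2 and -0.53 to -0.091 for Bmp4. The interaction ran from -0.30 to 0.16 for Mgp, -0.065 to 0.25 for Enpp1, -0.16 to 0.32 for Alpl, -0.20 to 0.52 for Bmp4 and -0.17 to 0.21 for Runx2.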
